A study of Mus musculus with 112 samples.

Results

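The genes described here encode respiratory complex I, measured in the white adipose tissue (WAT) of male mice on caloric restriction (CR) or a control diet. The members are the 43 genes whose symbol starts with Nduf and that have a probe set of their own on the array, out of 19938 genes with such a probe set. By symbol prefix, 36 are structural (Ndufa, Ndufab, Ndufb, Ndufc, Ndufs, Ndufv) and 7 are assembly factors (Ndufaf1 to Ndufaf7). The study used 112 arrays, 1 mouse each, with 8 CR and 8 control mice in each of 7 strains: 129S1/SvImJ, Balbc/J, CBA/J, C57BL6/J, DBA/2J, C3H/HeJ and the hybrid of C57BL6/J with C3H/HeJ, B6C3F1/J. CR began at 8 weeks of age and fat was taken at 22 weeks after an overnight fast that all mice shared. The CR allotment was not the same in every strain: 129S1/SvImJ and C57BL6/J CR mice were restricted further during the study, and Balbc/J mice received more food than the other strains in both diet groups. Strain and food allotment therefore cannot be told apart where strains with different allotments are compared. B6C3F1/J, DBA/2J, C3H/HeJ and CBA/J were fed alike within each diet, and C57BL6/J and 129S1/SvImJ were fed like each other. A contrast of 1 strain with the mean of all the others mixes allotments.

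Complex I is the entry point of the mitochondrial respiratory chain. It takes electrons from NADH, passes them along a row of iron-sulfur clusters to ubiquinone, and pumps protons across the inner membrane. Its core is made of subunits encoded in the nucleus and in mitochondrial DNA, surrounded by many accessory subunits, and assembly factors help to build it without staying in the finished enzyme. White fat holds few mitochondria for its volume, most of them in adipocytes, and brown fat holds many. The subunits encoded in the mitochondrial genome were not analysed here.

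The promoters of 38 of the 43 members were found in the RefSeq promoter table (build GRCm38.p6), each 300 bases long and ending shortly after the start of the gene. Promoters are shown for 4 members because these carried the clearest results. Ndufa8 and Ndufs6 had an unadjusted p under 0.01 (limma) in every strain, though in Balbc/J neither passed after adjustment. Ndufaf4 had the largest change among assembly factors, and Ndufb6 the largest of all. Capitals mark matches, on either strand, to the NRF1 motif GCGCANGCG or the ETS motif CCGGAAG, which is bound by GABP among others. The regions are chr2:36049289-36049588 (minus strand) for Ndufa8, chr13:73328433-73328732 (minus strand) for Ndufs6, chr4:24897833-24898132 (plus strand) for Ndufaf4 and chr4:40279372-40279671 (minus strand) for Ndufb6.
Ndufa8: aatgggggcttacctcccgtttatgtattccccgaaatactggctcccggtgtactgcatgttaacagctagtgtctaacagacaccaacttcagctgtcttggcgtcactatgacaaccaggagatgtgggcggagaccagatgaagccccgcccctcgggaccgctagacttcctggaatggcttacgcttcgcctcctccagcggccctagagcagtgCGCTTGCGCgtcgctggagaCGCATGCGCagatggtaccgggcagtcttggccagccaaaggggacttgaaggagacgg
Ndufs6: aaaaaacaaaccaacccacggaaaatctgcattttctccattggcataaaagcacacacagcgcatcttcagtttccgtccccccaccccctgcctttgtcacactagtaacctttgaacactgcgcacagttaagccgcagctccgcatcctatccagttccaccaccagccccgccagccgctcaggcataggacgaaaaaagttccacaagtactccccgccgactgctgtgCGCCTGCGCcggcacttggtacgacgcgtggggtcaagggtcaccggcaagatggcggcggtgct
Ndufaf4: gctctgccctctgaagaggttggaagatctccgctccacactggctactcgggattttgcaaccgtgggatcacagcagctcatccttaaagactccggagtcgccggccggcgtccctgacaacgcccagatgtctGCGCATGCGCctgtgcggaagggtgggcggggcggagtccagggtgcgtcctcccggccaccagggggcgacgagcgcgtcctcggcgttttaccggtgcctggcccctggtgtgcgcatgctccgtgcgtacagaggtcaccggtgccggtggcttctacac
Ndufb6: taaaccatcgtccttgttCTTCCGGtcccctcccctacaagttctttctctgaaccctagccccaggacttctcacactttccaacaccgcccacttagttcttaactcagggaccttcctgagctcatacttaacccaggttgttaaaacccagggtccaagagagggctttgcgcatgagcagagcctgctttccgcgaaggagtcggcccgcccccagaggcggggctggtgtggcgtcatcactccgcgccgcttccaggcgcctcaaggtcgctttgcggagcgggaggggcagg
The NRF1 motif was present in 9 of the 38 member promoters (23.7%), against 7.03% of all 27025 genes in the promoter table and 10.5% of the 15614 of these that the array measured. The ETS motif was present in 5 member promoters (13.2%), against 9.93% of all genes and 13.6% of the measured ones. In the 4 promoters shown, the NRF1 matches of Ndufaf4 lie on both strands and overlap, and Ndufa8 has 2 separate matches. A 9-base motif of estrogen-related receptors, TCAAGGTCA, was in none of the 38 member promoters and in 0.346% of the measured genes, and its shorter form AAGGTCA was in 2 members (5.26%), against 4.48%. A match is a string of letters and not a bound site.

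Complex I genes were higher in WAT of CR mice than of control mice almost without exception. Over the 7 strains, 42 of the 43 members were higher on CR and none was lower (limma, Benjamini-Hochberg adjusted p under 0.05 over all genes). Of all 19938 genes, 21.9% were called higher and 22% lower. Among the brighter genes, those above the median signal, to which 39 of the members belong, 34% were called higher. The median member rose by 0.27 on the log2 scale, while the median over all genes was 0.01. The sign was positive in all 7 strains for 39 members, or 90.7% of them, against 12.7% of all genes.

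**Figure D1:**
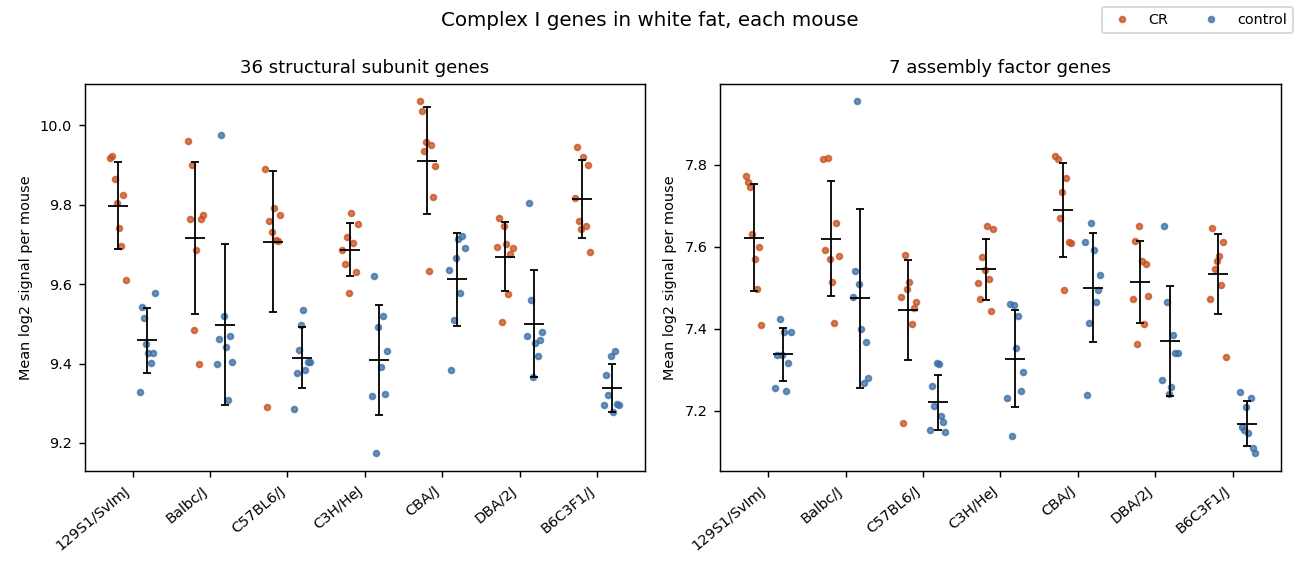
Mean log2 signal of the structural subunit genes (left) and of the assembly factor genes (right) in each mouse, by strain, with CR left of control. Points are mice, bars are the mean and SD of 8 mice. Every CR mouse lies above every control mouse in 129S1/SvImJ and B6C3F1/J for the structural genes, and the highest control mouse of Balbc/J, at 9.98, lies above all CR mice of that strain.

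The shift was visible in single mice. The mean signal over the 36 structural genes averaged 9.81 ± 0.10 in CR B6C3F1/J mice and 9.34 ± 0.06 in control mice (SD, n = 8 each), the widest gap of the 7 strains. The lowest CR mouse, at 9.68, lay above the highest control mouse, at 9.43. In 129S1/SvImJ the averages were 9.80 ± 0.11 in CR mice and 9.46 ± 0.08 in control mice, again without overlap. In C57BL6/J, C3H/HeJ and CBA/J, 7 of 8 CR mice exceeded the highest control mouse. In Balbc/J (9.72 ± 0.19 in CR mice and 9.50 ± 0.20 in control mice) and DBA/2J (9.67 ± 0.09 in CR mice and 9.50 ± 0.13 in control mice) no CR mouse did. In each of these strains 1 control mouse lay above all CR mice.

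All 6 measured core subunits encoded in the nucleus were higher on CR over strains. Ndufs1, the largest subunit of the peripheral arm and the carrier of several iron-sulfur clusters, was higher by 0.54 (SE 0.05, adjusted p = 1.29e-17), or 1.46-fold. In B6C3F1/J its signal was 9.65, 9.74 and 9.98 in the lowest, median and highest CR mouse, against 8.86, 9.00 and 9.15 in control mice. The groups did not overlap, and the difference of 0.77 was the largest of any member in any strain. In C57BL6/J its values were 8.83, 9.79 and 10.02 on CR, against 8.92, 9.06 and 9.39 in control mice. A single CR mouse, mouse 2 of that group, lay under the lowest control mouse. In Balbc/J the values were 9.40, 9.90 and 10.41 on CR, against 8.98, 9.45 and 10.52 in control mice, so that the highest of the 16 mice was a control mouse. The remaining core subunits changed less: Ndufv1, which binds NADH, by 0.38 (adjusted p = 8.84e-20), Ndufv2 by 0.34, Ndufs3 by 0.32, Ndufs8, which holds clusters near the ubiquinone site, by 0.39, and Ndufs7, which passes electrons to ubiquinone, by 0.21 (adjusted p = 3.57e-16). These 6 core subunits all had p under 0.01 in at least 5 strains, as did 20 of the 43 members and 6.27% of all genes.

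The rise ran through every part of the enzyme. In the module that oxidises NADH, all 10 measured genes were higher (median 0.30), in the module that reduces ubiquinone 5 of 5 (median 0.32), in the part of the membrane arm next to it 9 of 9 (median 0.29), and in the far part of the membrane arm 9 of 9 (median 0.27). The largest change of any member was in the far part, in Ndufb6, an accessory subunit with a single membrane span, at 0.55 (SE 0.04, adjusted p = 3.34e-20). Ndufa11 followed the core subunit Ndufs1 at 0.48 and Ndufs4, whose loss in humans causes Leigh syndrome, at 0.45. Ndufab1, the mitochondrial acyl carrier protein, which also serves fatty acid and lipoic acid synthesis, was higher by 0.45. Ndufb5, Ndufa1 and Ndufb9 were higher by 0.44, 0.42 and 0.40.

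Ndufb6 showed the spread behind these averages. Its signal in 129S1/SvImJ was 10.48, 10.92 and 11.10 in the lowest, median and highest CR mouse, against 9.99, 10.19 and 10.42 in control mice. In B6C3F1/J it was 10.77, 11.04 and 11.14 on CR, against 10.18, 10.34 and 10.50 in control mice. Neither strain had any overlap between the diets. In DBA/2J the CR values of 10.30, 10.56 and 10.68 reached into the control range of 9.91, 10.06 and 10.57, and the difference of 0.41 (SE 0.10) had an unadjusted p of 0.000718 (limma). In Balbc/J the values were 10.21, 10.74 and 11.30 on CR, against 9.61, 10.25 and 11.08, and p was 0.0127. The difference in Balbc/J, 0.48, was larger than that in DBA/2J but stood against a wider spread, with SDs of 0.36 and 0.42 on CR and control in Balbc/J and 0.12 and 0.26 in DBA/2J.

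**Figure D2:**
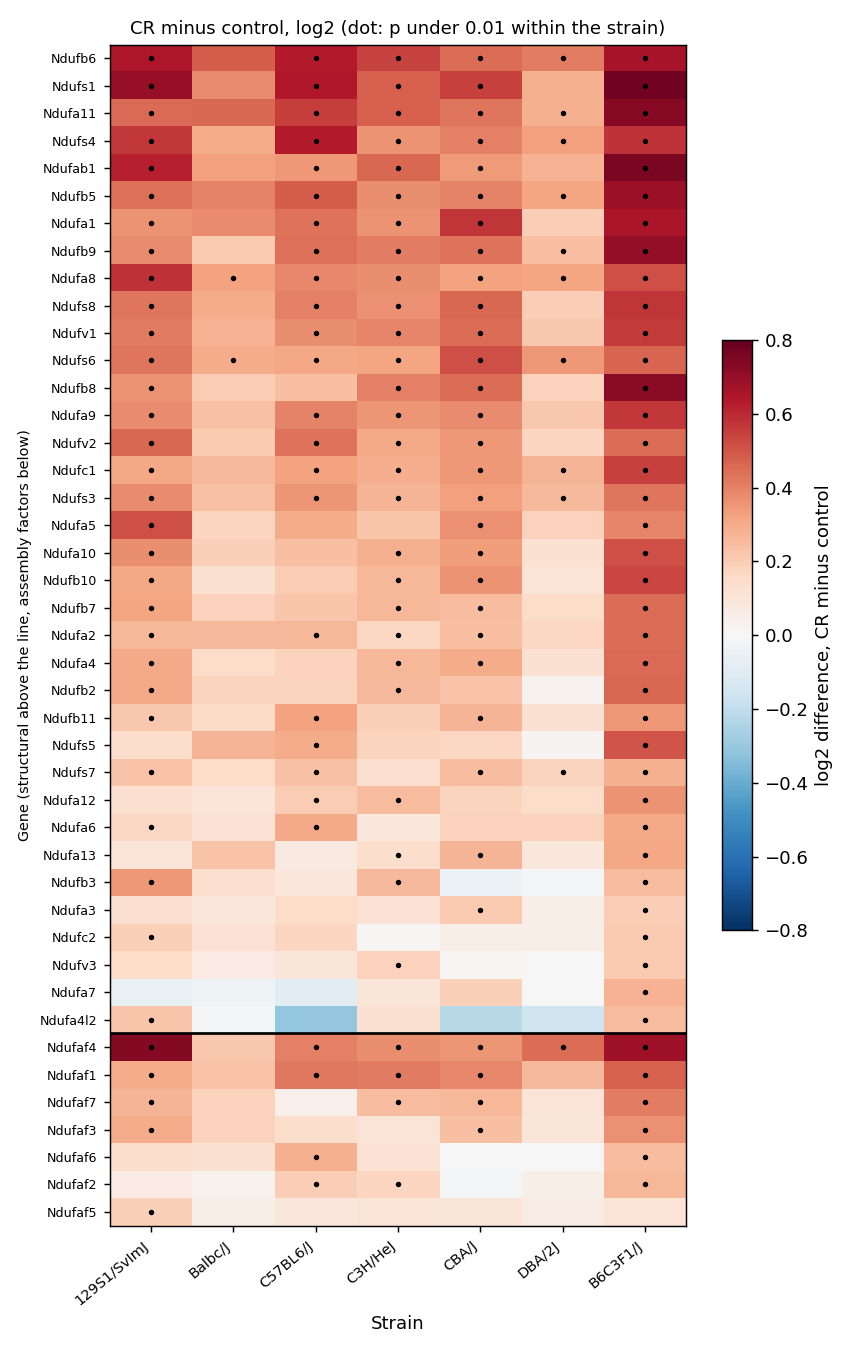
CR minus control difference on the log2 scale for each member (rows, sorted by the mean over strains within each class) in each strain (columns). Red is higher and blue lower on CR, and a dot marks p under 0.01 within the strain. Dots fill almost the whole B6C3F1/J column (42 of 43) and appear for 2 members in Balbc/J.

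Among the members, Ndufa8 and Ndufs6 passed p under 0.01 in all 7 strains (limma within each strain), as 0.125% of all genes did. Ndufa8, a small subunit on the outer face of the inner membrane, was higher by 0.31 to 0.58 across strains, and by 0.40 (SE 0.03, adjusted p = 3.76e-23) on average. In 129S1/SvImJ its signal was 10.39, 10.65 and 10.76 on CR, against 9.96, 10.02 and 10.20 in control mice, with no overlap. In DBA/2J it was 10.38, 10.52 and 10.59 on CR, against 10.04, 10.17 and 10.56, where 1 control mouse lay among the CR mice. In Balbc/J it was 10.06, 10.57 and 10.80 on CR, against 10.02, 10.08 and 10.60, with a p of 0.00719. Ndufs6, a zinc-binding subunit needed for the last steps of assembly of the NADH module, was higher by 0.30 to 0.51 across strains. In CBA/J its values were 8.71, 8.94 and 9.07 on CR, against 8.34, 8.39 and 8.55 in control mice, without overlap.

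The 7 assembly factors with the Ndufaf prefix were dimmer and changed less than the structural genes in the median. All 7 were higher over strains, with a median of 0.20, against 0.30 over the 36 structural genes and 0.31 over the 34 that remain without Ndufa4 and Ndufa4l2. The median log2 signal was 7.17 for assembly factors and 9.78 for structural genes. The classes differ in signal as well as in size of change, and the sizes are given side by side with no test. The order of the medians held in each of the 7 strains, from 0.10 for assembly factors against 0.18 for structural genes in DBA/2J to 0.37 against 0.46 in B6C3F1/J.

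Within the assembly factors the sizes were spread widely. Ndufaf4, which works on the ubiquinone module together with Ndufaf3, was higher by 0.46 (SE 0.04, adjusted p = 3.54e-18), the fourth largest of all members. In 129S1/SvImJ its signal was 7.63, 8.13 and 8.40 on CR, against 7.14, 7.36 and 7.60 in control mice, and in B6C3F1/J 7.37, 7.85 and 8.13, against 7.02, 7.18 and 7.32. Both pairs were free of overlap. In Balbc/J the highest mouse was a control mouse, with 7.42, 7.87 and 8.15 on CR, against 7.34, 7.50 and 8.46. Ndufaf1, part of the complex that builds the membrane arm, was higher by 0.35 (adjusted p = 8.05e-15). Ndufaf7, a mitochondrial methyltransferase, and Ndufaf3 were higher by 0.22 and 0.20. The smallest changes were those of Ndufaf6 (0.13), Ndufaf2, a paralog of Ndufa12 that binds a late intermediate (0.11, adjusted p = 4.86e-05), and Ndufaf5, which hydroxylates Ndufs7 (0.10, adjusted p = 0.000871). These 3 had mean signals of 6.23, 7.02 and 6.25, near or below the median of all genes at 7.17.

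Assembly genes with other names moved the same way. Of 13 measured, 12 were higher on CR and none lower. The median over the 13 was 0.26, between the 0.20 of the Ndufaf genes and the 0.30 of the structural genes. Aifm1, which imports several subunits through its partner Chchd4 and is also known from cell death, was higher by 0.59 (SE 0.04, adjusted p = 1.04e-26), more than any Nduf gene. The partners of Ndufaf1 in the membrane arm assembly complex were higher by 0.26 (Acad9), 0.37 (Ecsit), 0.32 (Timmdc1) and 0.16 (Tmem126b, adjusted p = 7.85e-06). Tmem126a was higher by 0.45, Foxred1 by 0.39, Tmem70, which also serves ATP synthase, by 0.34, Dmac1 by 0.17 and Lyrm2 by 0.11. Tmem186 and Nubpl, an iron-sulfur carrier for complex I, changed by 0.09 each (adjusted p = 0.00127 and 0.0408). Dmac2 had a difference of 0.02 (adjusted p = 0.444).

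2 structural members stood apart. Ndufa4l2, a paralog of Ndufa4 known as a target of hypoxia-inducible factor, had a mean difference of -0.02 over strains (SE 0.04, adjusted p = 0.743), and its CR effect differed between strains (F-test, adjusted p = 0.00086). In B6C3F1/J its signal was 7.42, 7.69 and 7.82 on CR, against 7.28, 7.38 and 7.62 in control mice, a difference of 0.25 (unadjusted p = 0.00054). In C57BL6/J it was 6.50, 7.34 and 7.62 on CR, against 7.27, 7.70 and 7.75, a difference of -0.31 (unadjusted p = 0.0293). The lowest of these CR mice, at 6.50, is the C57BL6/J mouse described below with epididymal transcripts, and the next CR mouse was at 7.24. Without it the difference in C57BL6/J was -0.20 (unadjusted p = 0.0292). The differences in CBA/J and DBA/2J were -0.22 and -0.16, and that in 129S1/SvImJ was 0.22. Ndufa4, now counted as a subunit of complex IV, was higher by 0.25 (adjusted p = 8.31e-12), within the range of the complex I genes.

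Ndufa7, an accessory subunit at the base of the NADH module, had the smallest change that passed, 0.06 (SE 0.02, adjusted p = 0.0332), and lost the call under several other settings. Its effect also differed between strains (adjusted p = 0.00119). In B6C3F1/J its values were 9.56, 9.68 and 9.90 on CR, against 9.12, 9.45 and 9.63 in control mice. In C57BL6/J they were 9.41, 9.49 and 9.62 on CR, against 9.49, 9.55 and 9.75. The difference was 0.28 in B6C3F1/J and -0.08 in C57BL6/J. The structural members with the next smallest changes that passed were Ndufv3 (0.10), an accessory subunit with tissue-specific isoforms, and Ndufc2 (0.11), both with adjusted p under 0.001 (0.000525 and 5.68e-07).

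**Figure D3:**
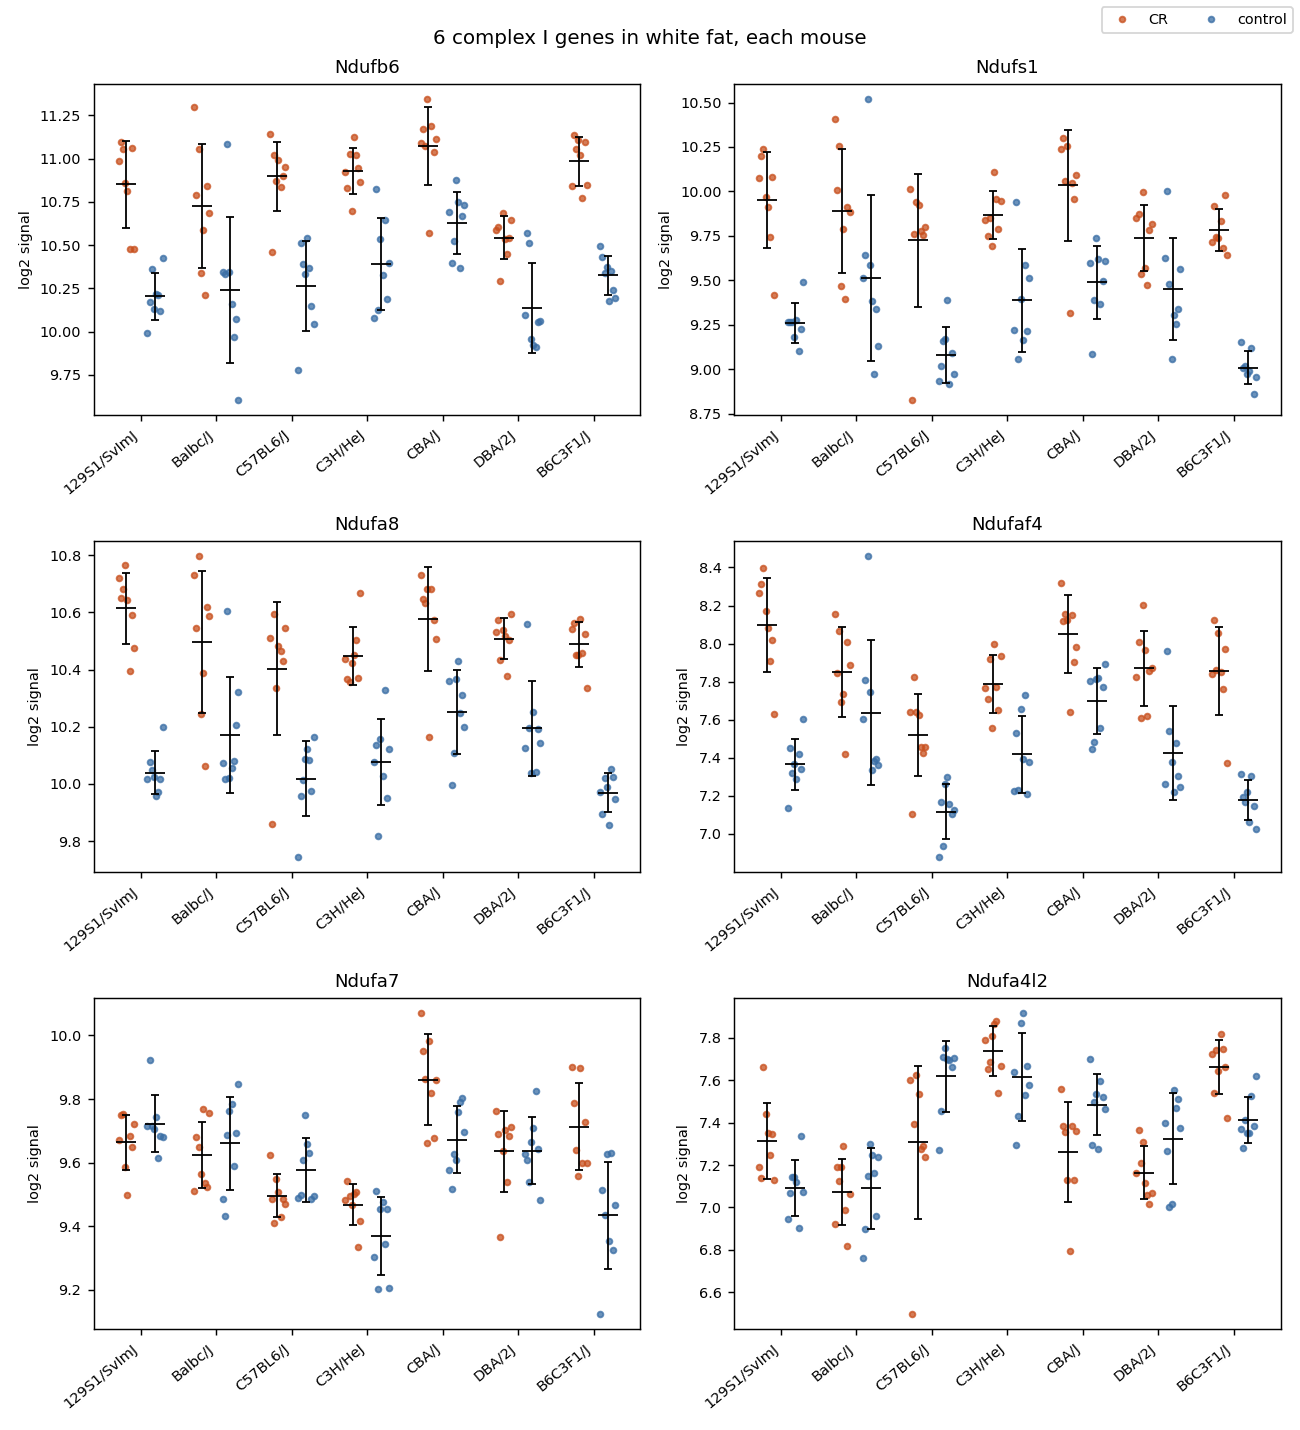
log2 signal of 6 members in each mouse, by strain, with CR left of control. Points are mice and bars are the mean and SD of 8 mice. Ndufb6, Ndufs1, Ndufa8 and Ndufaf4 are higher on CR in each strain, Ndufa7 and Ndufa4l2 in some strains only, and single control mice of Balbc/J and DBA/2J and single CR mice of C57BL6/J and CBA/J lie far from the others.

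Within the strains, the number of members with p under 0.01 and higher on CR was 35 in 129S1/SvImJ (14.4% of all genes were called the same way), 2 in Balbc/J (0.627%), 26 in C57BL6/J (9.8%), 31 in C3H/HeJ (9.26%), 31 in CBA/J (8.52%), 11 in DBA/2J (3.15%) and 42 in B6C3F1/J (16.5%). No member was called lower in any strain, where between 0.958% (Balbc/J) and 14.4% (B6C3F1/J) of all genes were (14.2% in 129S1/SvImJ, 7.82% in C57BL6/J, 7.44% in C3H/HeJ, 12.3% in CBA/J and 2.88% in DBA/2J). At an adjusted p under 0.05 the counts of higher members were 36 in 129S1/SvImJ (16.8% of all genes), 0 in Balbc/J (0%), 24 in C57BL6/J (9.39%), 30 in C3H/HeJ (8.75%), 31 in CBA/J (8.68%), 1 in DBA/2J (0.492%) and 42 in B6C3F1/J (17.8%). The 1 member in DBA/2J was Ndufa8. The median difference over the members was 0.31, 0.21, 0.29, 0.26, 0.32, 0.17 and 0.46 in the same order of strains, while the medians over all genes ran from -0.03 to 0.06. Every CR mouse lay above every control mouse for 32 members in B6C3F1/J (6.95% of all genes did so), 16 in 129S1/SvImJ (3.42%), 8 in CBA/J (1.39%), 5 in C57BL6/J (2.62%), 4 in C3H/HeJ (1.85%), and 0 in both Balbc/J (0.00502%) and DBA/2J (0.0702%). The multistrain rule of the study's methods asks for p under 0.01 in at least 6 strains. Applied to the limma p rather than to the methods' t-test, it passed 10 members (2.37% of all genes): Ndufa8, Ndufs6, Ndufb6, Ndufa11, Ndufaf4, Ndufs4, Ndufb5, Ndufb9, Ndufc1 and Ndufs3.

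The low counts in Balbc/J and DBA/2J each changed with 1 control mouse. Balbc/J control mouse 3 had a structural mean of 9.98, where the other 7 control mice ran up to 9.52. Without it, 23 members in place of 2 had p under 0.01 (4.85% of all genes were then called higher), 19 structural and 4 assembly genes, and the median difference was 0.28 in place of 0.21. None of the 43 had an adjusted p under 0.05 even then, and the smallest was 0.0609 for Ndufb5. DBA/2J control mouse 2 had a structural mean of 9.80, where the others ran up to 9.56. Without it the count in DBA/2J was 22 in place of 11 (3.76% of all genes), and 13 members in place of 1 had an adjusted p under 0.05 (1.16% of all genes).

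These mice carried more transcripts of brown adipocytes. The mean log2 signal of 5 brown adipocyte markers (Ucp1, Cidea, Cox8b, Cox7a1 and Elovl3) was 10.01 in Balbc/J control mouse 3, which is 2.65 above the median of its group, and 11.20 in DBA/2J control mouse 2, 3.07 above its group. These genes also moved with the diet: 5 of 5 were higher on CR over strains, with a median of 0.75, and the group means of the list were higher on CR in each strain, by 0.55 in DBA/2J to 1.64 in B6C3F1/J. Ucp1, the uncoupling protein, was higher by 0.61 (adjusted p = 0.00047) with a mean signal of 6.93, near the middle of all genes. The group means of the list ran from 7.31 to 9.50 in CR groups and from 6.69 to 8.52 in control groups. Their part in the complex I result was not tested. In bulk tissue, more cells of a type and more RNA per cell cannot be told apart.

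Raised transcripts of the epididymis, the duct that lies against this fat depot, were found on 12 arrays, 9 of CR mice and 3 of control mice, from C57BL6/J, CBA/J and DBA/2J. DBA/2J control mouse 2 was among them, with a mean of 5.94 over the epididymis markers. The mean of these 7 markers was 12.04 in C57BL6/J CR mouse 2 and 11.81 in CBA/J CR mouse 5, while the median over all arrays was 4.90. The same 2 mice had the lowest structural means of their groups, 9.29 and 9.63. Without C57BL6/J CR mouse 2, 36 members in place of 26 had p under 0.01 in that strain (13.8% of all genes), and without CBA/J CR mouse 5 it was 33 in place of 31 (11.6%). With all 12 arrays left out, 41 of the 43 members were higher over strains (22.1% of all genes), and 17 in place of 10 passed in at least 6 strains (2.9% of all genes).

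Other cell types were measured by the same arrays. The 7 adipocyte markers had group means from 12.76 to 12.93 in CR groups and from 12.81 to 13.00 in control groups, and 1 rose and 2 fell over strains. The 10 macrophage markers were all lower on CR over strains, with a median of -0.77, and their group means ran from 8.25 to 8.82 in CR groups and from 8.69 to 10.03 in control groups. The macrophage mean differed by -0.07 in Balbc/J, -0.43 in DBA/2J, -0.70 in C57BL6/J and -0.73 in C3H/HeJ. It differed by -0.81 in 129S1/SvImJ, -1.31 in B6C3F1/J and -1.42 in CBA/J. Of 5 fibroblast and progenitor markers 4 were lower on CR over strains, with a median of -0.18. Their group means ran from 9.21 to 9.81 in CR groups and from 9.72 to 10.04 in control groups, and in 129S1/SvImJ and CBA/J all 8 CR mice lay below the lowest control mouse. Among the endothelial, T cell, B cell, mesothelium and skeletal muscle markers, 2 of 6, 1 of 4, 0 of 3, 1 of 4 and 1 of 5 were lower, and 1 mesothelium marker was higher. The part of these cells in the complex I result was not tested.

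The size of the rise was compared between strains. The F-test passed for 6 members, Ndufa4l2, Ndufa7, Ndufb8 (adjusted p = 0.0139), Ndufaf3 (0.0257), Ndufb9 (0.0309) and Ndufb10 (0.0397), where 19% of all genes passed. For the other members no difference in the size of the effect was detected. B6C3F1/J had the highest difference for 32 of the 43 members, and DBA/2J had the lowest for 23. How often these strains rank so over all genes is not given here. B6C3F1/J also had the largest share of all genes higher on CR at p under 0.01 (limma), 16.5%. The share was 3.15% in DBA/2J and 0.627% in Balbc/J. Set against the mean of the other 6 strains, a contrast chosen after the values were seen except for Balbc/J, the effect in B6C3F1/J was larger for 5 members (2.38% of all genes were larger): Ndufb8 by 0.42 (SE 0.10, adjusted p = 0.00636), Ndufb9 by 0.35, Ndufb10 by 0.31, Ndufa7 by 0.26 and Ndufaf3 by 0.19. The first 3 are subunits of the far membrane arm. In B6C3F1/J Ndufb8 differed by 0.72 (SE 0.07), against 0.18 to 0.45 in the other strains. The effect of Ndufa4l2 in C57BL6/J was smaller than in the other strains by the same kind of contrast (-0.34, SE 0.10, adjusted p = 0.0265; 2.18% of all genes were smaller there), and this call rested on C57BL6/J CR mouse 2, without which the contrast was -0.23 (SE 0.09, adjusted p = 0.13). No member was called in either direction in 129S1/SvImJ (4.55% of all genes), C3H/HeJ (0.0802%), CBA/J (6.4%) or DBA/2J (0.667%).

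The effect in Balbc/J did not pass against the other strains for any member (3.25% of all genes passed). The smallest p belonged to Ndufaf4, at -0.28 (SE 0.12, adjusted p = 0.208), followed by Ndufb9 at -0.22 (SE 0.09, adjusted p = 0.235), Ndufb10 at -0.17 and Ndufv2 at -0.15. The estimate was below 0 for 40 of the 43 members (58.3% of all genes), with a median of -0.09, against -0.02 over all genes. Of the members 2 had an unadjusted p under 0.05 (limma), while 13.4% of all genes did. A p that misses the threshold does not show that the effects were alike.

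The strains also differed on the control diet. The F-test over the 7 control groups passed for 41 of the 43 members, with Ndufs6 (adjusted p = 0.0792) and Ndufaf5 (0.509) the exceptions, where 56.6% of all genes and 81.3% of those above the median signal passed. The widest ranges of control means were those of Ndufs5, between 7.60 in 129S1/SvImJ and 8.36 in CBA/J, Ndufaf4, between 7.12 in C57BL6/J and 7.70 in CBA/J, Ndufa4l2, between 7.09 in Balbc/J and 7.62 in C57BL6/J, and Ndufb11, an X-linked subunit, between 10.24 in B6C3F1/J and 10.76 in Balbc/J. CBA/J had the highest control mean for 25 members and B6C3F1/J the lowest for 20, and the same ranking over all genes is not given here. Which arrays were normalized together is not given in the sources used here, so levels are set side by side across strains with that limit.

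The structural means of the strains spread less on CR (9.67 in DBA/2J to 9.91 in CBA/J) than on the control diet (9.34 in B6C3F1/J to 9.61 in CBA/J) by a small margin, with ranges of 0.24 and 0.27. The members taken singly did not share this, since only 21 of the 43 had the narrower range on CR. The same count over all genes is not given here. B6C3F1/J, lowest on the control diet, ranked second on CR.

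The rest of the respiratory chain gave the same picture. All 4 measured genes of complex II (median 0.39), 9 of 9 of complex III (median 0.39), 9 of 9 of complex IV (median 0.24) and 14 of 15 of ATP synthase (median 0.23) were higher on CR over strains, and none was lower. Of 8 general mitochondrial genes, 7 were higher, with citrate synthase (Cs) at 0.51, the chaperone Hspd1 at 0.50 and the channels Vdac1 and Vdac2 at 0.31 each, while the import receptor Tomm20 had a difference of 0.03 (adjusted p = 0.498). The structural median of complex I, 0.30, lay within the range of these list medians, and that of the assembly factors, 0.20, lay below it.

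**Figure D4:**
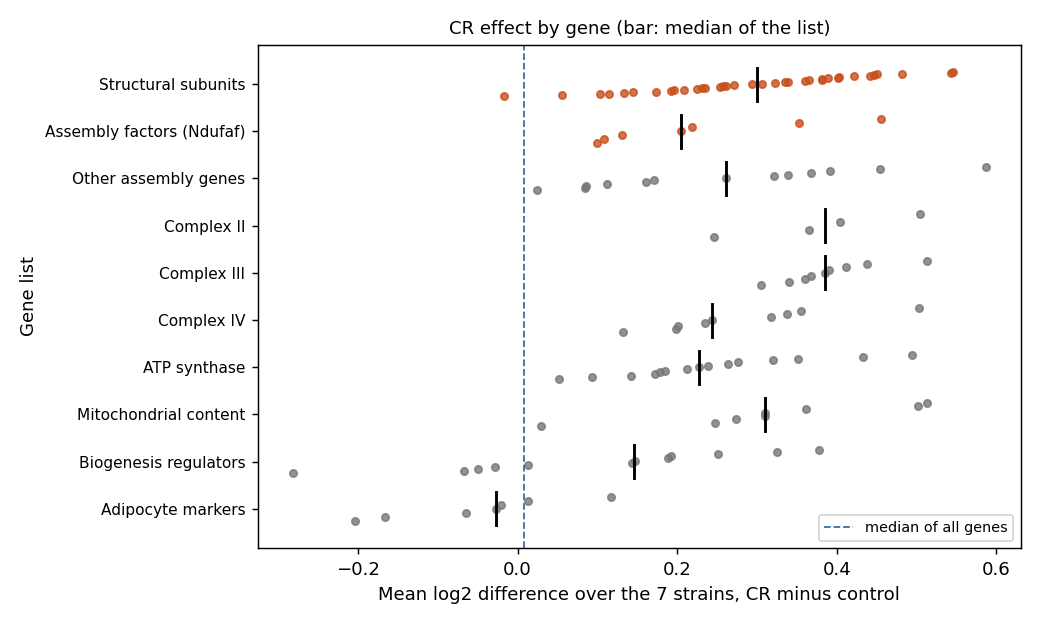
Mean log2 difference over the 7 strains, CR minus control, for each gene (points) of the 2 complex I classes, the other mitochondrial lists and the adipocyte markers. Black bars are list medians and the dashed line is the median of all genes, 0.01. The structural genes have a median of 0.30 and the assembly factors of 0.20, and a single Nduf gene lies below 0.

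The regulators of mitochondrial genes did not move as one. Of 12 measured, 7 were higher, 2 lower and 3 did not pass. Ppargc1a, the coactivator best known for driving mitochondrial biogenesis, was higher by 0.38 (SE 0.06, adjusted p = 1.21e-08), its relative Ppargc1b by 0.15 and the nuclear receptor Esrra by 0.25. Esrra differed between strains (F-test, adjusted p = 0.000631). The mitochondrial transcription factors Tfb2m, Tfb1m and Tfam were higher by 0.33, 0.19 and 0.14, and the mitochondrial RNA polymerase Polrmt by 0.19. The third member of the coactivator family, Pprc1, fell by 0.28 (SE 0.03, adjusted p = 1.4e-17), and was lower in all 7 strains, and Yy1 fell by 0.07 (adjusted p = 0.000956). Nrf1, whose motif was searched in the promoters, had a difference of -0.05 (adjusted p = 0.0538), and the GABP genes Gabpa and Gabpb1 had 0.01 and -0.03 (adjusted p = 0.765 and 0.346).

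5 members had more than 1 probe set, and the second probe set of each was also higher on CR. It gave 0.37 for Ndufa11, where the brighter one gave 0.48, 0.42 against 0.45 for Ndufab1, 0.24 against 0.23 for Ndufb11, 0.34 against 0.34 for Ndufc1, and 0.34 against 0.32 for Ndufs3.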

How the data were processed

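RNA of white adipose tissue from 112 male mice was hybridised singly, without pooling, to arrays of the Affymetrix Mouse Gene 1.0 ST type. The deposited values are log2 signals, which the authors made with the RMA-sketch method of Expression Console. The version is not given in the sources used here, and neither is which arrays were normalized together. Array medians ran from 6.72 to 6.86, and precision is limited by how many arrays a group has. Probe sets with 1 gene symbol gave 19938 genes, and the brightest probe set stood for a gene with several (brightest over the 16 arrays of a strain in tests within it).

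Diets and strains were compared with limma 3.58.1 in R 4.3.3 on all genes, with Benjamini-Hochberg adjustment over all of them. The methods' t-test was run as an alternative, and single mice were compared with their group by Dixon's criterion. Over strains, 14 group means were fitted and the 7 CR minus control differences were averaged, compared by an F-test, or set against each other. Within strains, the 16 arrays were fitted alone and p under 0.01 was the threshold of the study's methods. The genes with values in the text are every assembly factor, the core subunits, the structural members with the 8 largest and 3 smallest changes or missing the test, those passing in all 7 strains or with the 4 smallest p in the strain comparisons or the 4 widest control ranges, Ndufa4, Ndufa4l2, and the other complex I genes and regulators. Members, gene lists and markers were chosen with earlier results of these data known. Arrays were called raised in epididymis markers at over 1 log2 unit above the median of all arrays, and control arrays in brown adipocyte markers at over 2 above their group's median. Both rules were set after seeing the data. Scripts were tested on simulated data. Promoters came from a RefSeq table. The labels do not say whether mice with the same replicate number were paired, and the main fits did not treat them as pairs.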

Additional observations from a re-analysis of the deposited data

Results flagged for a closer look

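In groups of 8 mice, a single mouse lay far from the other 7 by Dixon's criterion at the 95% level in 19 of 112 group and measure combinations, where chance gives about 1 in 20. Most belonged to 4 mice. C57BL6/J CR mouse 2 was lowest in the structural mean (9.29, next 9.71), the assembly factor mean (7.17, next 7.41), Ndufs1 (8.83, next 9.75), Ndufa8 (9.86, next 10.34), Ndufb6 (10.46, next 10.84) and Ndufa4l2 (6.50, next 7.24). CBA/J CR mouse 5 was lowest in Ndufs1 (9.32, next 9.96), Ndufa8 (10.16, next 10.51) and Ndufb6 (10.57, next 11.04). These are the 2 mice with the highest epididymis markers, and the part of those transcripts was not tested.

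Balbc/J control mouse 3 was highest in the structural mean (9.98, next 9.52), the assembly factor mean (7.95, next 7.54), Ndufs1 (10.52, next 9.64) and Ndufaf4 (8.46, next 7.81). DBA/2J control mouse 2 was highest in the structural mean (9.80, next 9.56), Ndufa8 (10.56, next 10.25) and Ndufaf4 (7.96, next 7.54). These are the 2 control mice with raised brown adipocyte markers, whose part was not tested either. The remaining 3 were C3H/HeJ CR mouse 8 in Ndufa8 (10.67, next 10.50), 129S1/SvImJ control mouse 2 in Ndufa7 (9.92, next 9.74) and 129S1/SvImJ control mouse 8 in Ndufs1 (9.49, next 9.28).

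The CR effect differed between strains (F-test of limma) for Ndufa4l2 (adjusted p = 0.00086), Ndufa7 (0.00119), Ndufb8 (0.0139), Ndufaf3 (0.0257), Ndufb9 (0.0309) and Ndufb10 (0.0397). In single strains set against the mean of the others, the adjusted p was 0.00578 for Ndufa7, 0.00636 for Ndufb8, 0.0158 for Ndufb9, 0.0269 for Ndufb10 and 0.0425 for Ndufaf3 in B6C3F1/J, and 0.0265 for Ndufa4l2 in C57BL6/J (0.13 without C57BL6/J CR mouse 2). Outside the members, 2 probe sets shared by Ndufb4 and Ndufb4b were higher on CR over strains by 0.16 (SE 0.02) and 0.15 (SE 0.02), and 1 shared by Ndufs5 and Ndufs5-ps by 0.23 (SE 0.04, adjusted p over all probe sets = 3.67e-07).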

How the results depend on the processing

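The count over strains stayed between 38 and 42 members under every setting run, with no member called lower. In each case the tested set was 43 members, or 39 where dim genes were left out. Ndufa7 lost its call after quantile normalization (adjusted p = 0.122), with the replicate block (0.0545) and without the arrays raised in epididymis markers (0.0597). Ndufa4l2, which had no call, changed sign with array weights (0.0048, adjusted p = 0.909). The cause of each change was not tested.

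The number of members called in Balbc/J was 0 after quantile normalization, 24 with array weights, 10 with the replicate block, 1 with the methods' t-test on the raw signal scale, 21 with all 14 groups in one model and 23 without the 2 control arrays raised in brown adipocyte markers (23 too without both sets of arrays). In DBA/2J it was 25 with array weights, 18 without the arrays raised in epididymis markers, 22 without those raised in brown adipocyte markers and 18 without both. Members passing in at least 6 strains numbered 24 with array weights, 19 in one model, 17, 20 and 21 without the epididymis, the brown and both sets. Calls over all genes moved too. In Balbc/J, 4.85% of all genes were called higher without control mouse 3, against 0.627% with it. Over strains, array weights called 25.6% of all genes higher, against 21.9%. For most of these settings the share of all genes called within strains is not given here. Members whose effect differed between strains numbered 19 with array weights and 12 without Balbc/J. In the main fit they numbered 6, where 19% of all genes passed. The share of all genes with array weights or without Balbc/J is not given here.

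Leaving out each array in turn gave 31 to 35 members in 129S1/SvImJ, 0 to 23 in Balbc/J, 22 to 36 in C57BL6/J, 26 to 32 in C3H/HeJ, 29 to 33 in CBA/J, 9 to 22 in DBA/2J and 42 in each case in B6C3F1/J, and 8 to 19 in at least 6 strains, the highest without Balbc/J control mouse 3. For most of these arrays the share of all genes called without them is not given here. Mice with the same replicate number did not deviate together throughout (r across genes of -0.363 to 0.55), and 10 of 56 CR mice correlated best with their own number, so the block is only an alternative fit. Centring each array on its median called 5086 genes higher and 3825 lower, against 4359 and 4394 as deposited. No depth is defined for arrays, and the dimmest members, Ndufaf5 and Ndufaf6, lie at the 31.9 and 31.5 percentile of signal.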
